A study of Mus musculus with 31 samples.

Results

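The genes described here encode the proteins of the cytosolic ribosome. They were taken from the array's annotation by the form of their symbols, which begin with Rpl or Rps. The rule found 70 genes, 45 of the large and 25 of the small subunit, among the 17097 genes that had a probe set carrying a single symbol. A probe set is a group of short probes for one transcript, and each gene was read from whichever of its probe sets was brightest on average across the arrays. The study set out to find RNAs cut by the endoribonuclease of IRE1 and direct targets of the transcription factor XBP1 in mouse liver. It used 31 Affymetrix arrays of male liver RNA in 8 groups, and the values are RMA intensities on a linear scale. In the first experiment 4 livers of 14-week-old Xbp1 ko mice were set against 4 of WT littermates, all in the fed state. In the second, 9-week-old Xbp1 ko mice had been injected with siRNA 8 days earlier, 4 labelled IRE1 siRNA and 4 labelled luciferase siRNA, so both groups lacked Xbp1. In the third, 14-week-old mice were either given tunicamycin at 2 mg/kg for 6 h (4 WT and 4 Ire1 ko) or left untreated and fed (4 WT and 3 Ire1 ko). Tunicamycin blocks N-linked glycosylation and so loads the endoplasmic reticulum with misfolded proteins. The promoter or cell type of any Cre behind the knockouts is not given in the sources used here, and no vehicle injection is named for the untreated mice. Strain is C57BL/6 for all mice except the Ire1 ko, whose background is labelled mixed, so effects of background and of the Ire1 deletion cannot be told apart.

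A ribosome is built from ribosomal RNA and one copy of most of these proteins, and liver, which secretes most of the plasma proteins, holds many ribosomes. Messages of ribosomal proteins begin with a run of pyrimidines, the terminal oligopyrimidine or TOP motif, through which the kinase complex mTORC1 raises their translation as a group. These messages are abundant and long-lived. During endoplasmic reticulum stress the kinase PERK phosphorylates the initiation factor eIF2 and lowers translation in general. The other arms of the response act through ATF6 and through IRE1, which splices the Xbp1 message.

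The starts of 7 of the genes named most often below are shown first, because the pyrimidine run is what most of this family shares outside the arrays. Each is a 30-base window of RefSeq's promoter table for GRCm38.p6, written 5′ to 3′ on the gene's strand, from 10 bases before the annotated start to 20 bases from it. Capitals mark a C followed by at least 5 further C or T.
Rpl22l1, chr3:28805498-28805527 (+): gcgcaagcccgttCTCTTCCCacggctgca
Rpl12, chr2:32961702-32961731 (+): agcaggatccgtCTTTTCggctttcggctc
Rpl13a, chr7:45128726-45128755 (-): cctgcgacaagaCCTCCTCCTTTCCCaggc
Rps13, chr7:116334171-116334200 (-): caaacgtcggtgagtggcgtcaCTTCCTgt
Rps2, chr17:24720053-24720082 (+): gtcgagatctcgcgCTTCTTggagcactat
Rpl7l1, chr17:46782637-46782666 (-): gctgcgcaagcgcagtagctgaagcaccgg
Rpl10, chrX:74270806-74270835 (+): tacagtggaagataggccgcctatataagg
The windows of Rpl7l1 and Rpl10 hold no such run. A promoter entry was found for 56 of the 70 genes. A run started within 50 bases of the annotated start in 53 of these 56 (94.6%), against 61.2% of the 27025 genes in the table, and within 10 bases in 27 (48.2%), against 19.6%. Over the 250 bases before and 50 after the start, on both strands, the ETS site CCGGAAG was present in 25 of the 56 (44.6%, against 9.93% of all genes) and the E-box CACGTG in 6 (10.7%, against 8.09%). The core of the amino acid response element, TGATGNAAN, was present in 0 of 56, against 4.5% of all genes, and TGACGTGG, the element bound by ATF6 and XBP1, in 0 of 56, against 0.714%. These matches describe the sequence only.

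Of the 70 probe sets, 65 had a mean intensity between 300 and 4000 over all arrays, and 1, that of Rpl7l1, had a mean of 75.1. The other 4 lay near the lowest intensity of the arrays, which was 3, and carry no measurable level. They were Rpl3l (mean 4.35), a paralog of Rpl3 known from muscle, Rpl39l (4.52), a paralog of Rpl39 known from testis, Rps15a (4.65) and Rpl14 (8.06). Intensities of different probe sets are not set against each other here. The probe sets of 21 of the genes, 16 with the suffix _x and 5 with the suffix _s, are ones whose probes can match other transcripts, and pseudogenes of ribosomal proteins are numerous.

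The labels were checked on the targeted genes. Xbp1 averaged 470 ± 80.3 in Xbp1 ko livers and 943.8 ± 140 in WT livers (SD, n = 4 each), a log2 difference of -1.01 (limma, adjusted p = 0.00872). Ern1, which encodes IRE1, went against its labels: it lay between 169 and 236 on the 4 arrays labelled IRE1 siRNA and between 18 and 35 on the 4 labelled luciferase siRNA (log2 difference 3.11 ± 0.22, SE, adjusted p = 0.000754). Results from these 8 arrays are therefore given as labelled, and their direction is uncertain. In Ire1 ko livers the Ern1 probe set did not show the loss, at 150.3 ± 2.52 (n = 3), against 149.2 ± 36.6 in WT (n = 4). Replicate arrays correlated between 0.984 and 0.993 over all probe sets, and no 2 arrays were identical.

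The level of the family on each array was taken as the median, over the 66 measurable members, of the log2 deviation from the gene's own mean over 31 arrays. It was highest in Ire1 ko livers after tunicamycin, at 0.19 ± 0.07 (SD, n = 4), and next in WT livers after tunicamycin, at 0.09 ± 0.05 (n = 4). Untreated Ire1 ko livers stood at -0.10 ± 0.11 (n = 3) and their untreated WT littermates at -0.08 ± 0.10 (n = 4). Only the treated Ire1 ko arrays lay wholly above the arrays of every untreated group, and the WT arrays after tunicamycin overlapped untreated WT, whose highest array reached 0.04. The 4 groups of the other experiments lay between, at -0.04 ± 0.04 in Xbp1 ko, -0.09 ± 0.05 in its WT littermates, 0.01 ± 0.07 on the arrays labelled IRE1 siRNA and -0.01 ± 0.01 on those labelled luciferase siRNA (n = 4 each). Of these 4 groups, the arrays labelled luciferase siRNA all lay above those of the Xbp1 WT littermates, which came from another experiment, and the other pairs overlapped.

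This level depended on how the arrays are scaled. In the deposited whole numbers all arrays had the same median, an intensity of 5, among probe sets without signal. At that level rounding can hide differences between arrays. When each array was shifted to a common median over the 9869 probe sets whose mean reached 16, called the common median below, the level became 0.12 ± 0.09 in Ire1 ko livers after tunicamycin, against 0.01 ± 0.20 in untreated Ire1 ko. It became 0.00 ± 0.02 in WT livers after tunicamycin, against -0.05 ± 0.12 in untreated WT, and each treated group then overlapped its untreated one. The 1072 other genes with mean intensities from 300 to 4000 moved the opposite way under both scalings. Their level was -0.25 ± 0.05 in WT after tunicamycin, against 0.06 ± 0.02 in untreated WT, and -0.11 ± 0.02 in treated Ire1 ko, against 0.06 ± 0.04 in untreated Ire1 ko, in the deposited values. Fewer cells of a type and less RNA per cell cannot be told apart in whole liver.

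**Figure D1:**
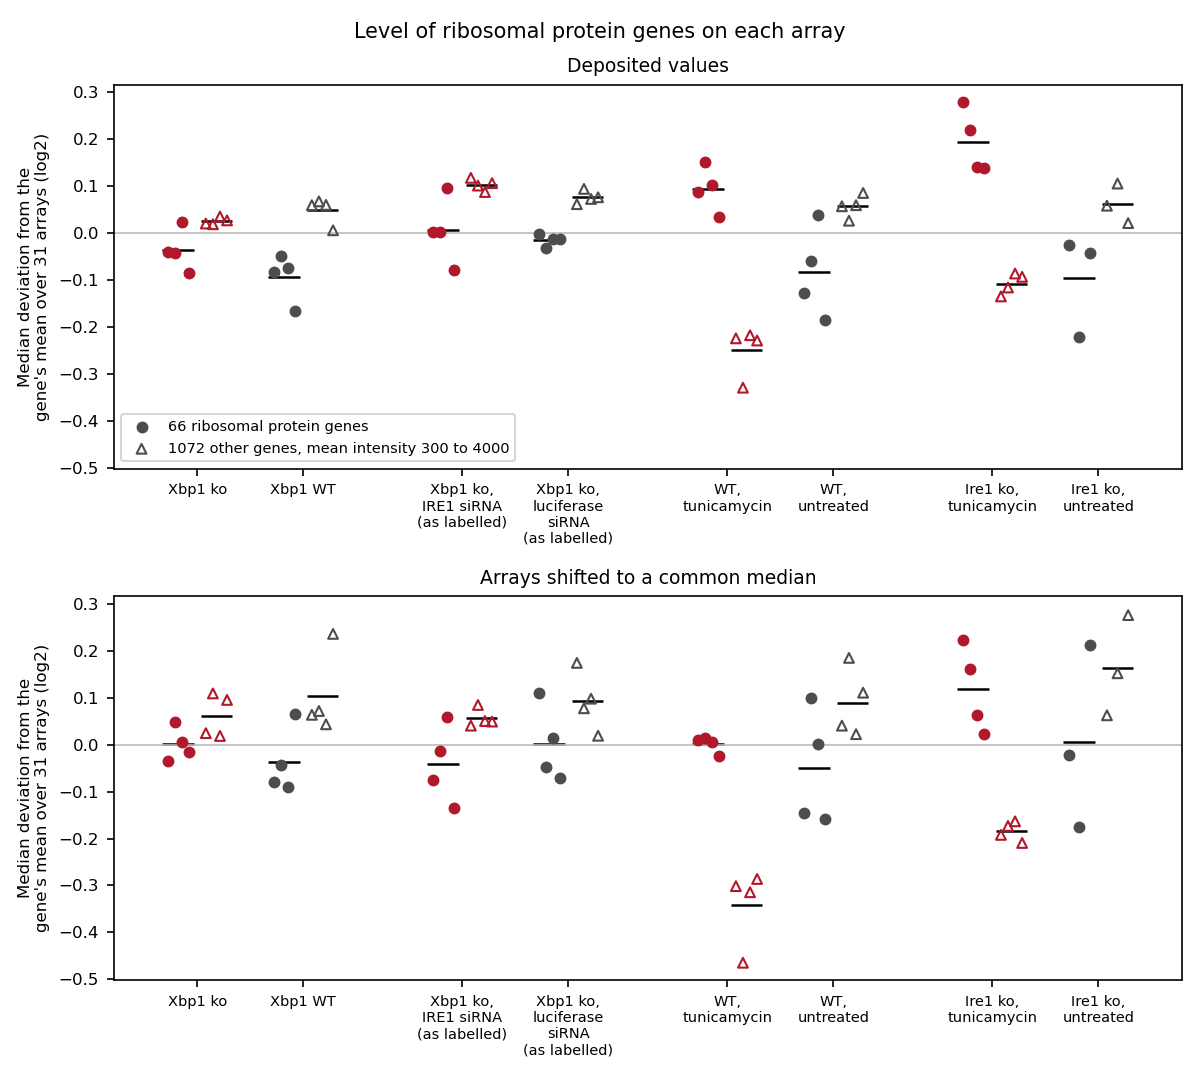
Median log2 deviation of 66 ribosomal protein genes (filled circles) and of 1072 other genes of mean intensity 300 to 4000 (open triangles) on each of the 31 arrays, by group, with the group mean as a bar, in deposited values (top) and after a shift to a common median (bottom). After tunicamycin the circles lie above the triangles in both genotypes and under both scalings, while the height of the circles above 0 falls to 0.12 in Ire1 ko and 0.00 in WT with the common median.

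In WT livers given tunicamycin, 28 ribosomal protein genes rose, 1 fell and 41 did not pass, at an adjusted p under 0.05 in limma (Benjamini-Hochberg over all genes tested). Over all 15172 genes tested 18.5% rose and 17.6% fell. The members' median log2 difference was 0.19, against -0.02 over all genes, and 62 of 70 were above 0. For the large subunit 17 of 45 rose, with a median of 0.17, and for the small subunit 11 of 25, with a median of 0.20. With the common median 9 rose and 2 fell (15.6% and 26.1% of all genes), and the members' median was 0.06, against -0.14 over all genes. That scaling moved every difference in this comparison by -0.12. A median over the brighter probe sets whose mean reached 300, a scaling chosen after seeing the data, moved it the other way: 39 rose and 1 fell (21% and 14.7% of all genes), at a members' median of 0.26, against 0.05 over all genes. With quantile normalization 34 rose and 1 fell (16.6% and 21.0% of all genes), at a members' median of 0.20, against -0.07 over all genes. In the deposited values the 65 members at intensities of 300 to 4000 had a median of 0.19. The 1072 other genes of that range had one of -0.31, and 22.7% of them rose and 53.4% fell. Without WT replicate 4 of the untreated group 19 members rose, and without replicate 3 of it 33 did. In 24 of 70 members all arrays of tunicamycin-treated WT lay above all of untreated WT, against 16.2% of all genes, and in 2 all lay below, against 14.8%.

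Rpl22l1 and Rpl22 are paralogs, of which Rpl22 is the usual subunit of the ribosome. Rpl22l1 was 537, 668, 616 and 538 in WT livers after tunicamycin, against 319, 317, 312 and 237 in untreated WT. All treated arrays lay well above all untreated ones, and the 2.00-fold rise (log2 0.998 ± 0.14, SE, adjusted p = 2.43e-05, limma) was the largest of the family. Rpl22 was 366, 423, 360 and 375 after tunicamycin, against 357, 391, 427 and 387 untreated, and the groups overlapped (log2 -0.04 ± 0.09, adjusted p = 0.806). A dimmer probe set of Rpl22, with a mean of 40.7 and a suffix that marks probes shared between transcripts, was 46, 59, 57 and 42 after tunicamycin, against 26, 38, 40 and 36 untreated. On it the gene rose by 0.55 ± 0.17 (adjusted p = 0.0212 over all probe sets), so the 2 probe sets of Rpl22 differ.

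Rpl12, a protein at the base of the stalk where elongation factors bind, was 1112, 1089, 1098 and 1117 in WT livers after tunicamycin, against 607, 611, 741 and 502 in untreated WT. The treated arrays lay close together and above every untreated one (log2 0.86 ± 0.11, adjusted p = 5.98e-06). Rplp0, the stalk protein that anchors the others, was 2822, 2819, 2954 and 2465 after tunicamycin, against 1775, 2007, 2056 and 1718 untreated (0.55 ± 0.07, adjusted p = 1.46e-05). The groups did not overlap. The acidic stalk proteins that bind Rplp0 rose less. Rplp1 was 2722, 2711, 2659 and 2728 after tunicamycin, against 2237, 2358, 2197 and 2116 untreated (0.28 ± 0.05, adjusted p = 0.000167), and again the groups were apart. Rplp2 was 1518, 1468, 1721 and 1371 after tunicamycin, against 1103, 1301, 1382 and 1193 untreated (0.29 ± 0.09, adjusted p = 0.0128), with 1 treated array just below the highest untreated one. Under the common median Rpl12 and Rplp0 still rose, while Rplp1 and Rplp2 no longer passed (0.16 each, adjusted p = 0.146 and 0.24).

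Rpl7l1, a paralog of Rpl7 that acts in assembly of the large subunit, was 105, 125, 122 and 106 in WT livers after tunicamycin, against 84, 61, 83 and 71 in untreated WT. The groups were apart (0.62 ± 0.15, adjusted p = 0.00348), while Rpl7 itself rose by 0.24 ± 0.09 (adjusted p = 0.0286), which the common median reduced to 0.11 (adjusted p = 0.388). Of the 2 other probe sets of Rpl7l1, 1 rose by 0.58 and the other was at -0.07 and did not pass. Among small subunit proteins, Rps13, near the platform of that subunit, was 760, 882, 748 and 766 after tunicamycin, against 585, 513, 625 and 514 untreated (0.50 ± 0.10, adjusted p = 0.00032). Rpsa, the protein also known as the laminin receptor, was 2095, 1980, 1868 and 1990, against 1537, 1415, 1532 and 1292 untreated (0.46 ± 0.07, adjusted p = 3.8e-05). Neither gene's groups overlapped. Rpl13a, the member known as an interferon-linked regulator of translation outside the ribosome, was 1625, 1810, 1480 and 1691 after tunicamycin, against 1216, 1198, 1359 and 1186 untreated (0.41 ± 0.09, adjusted p = 0.000625). All its treated arrays lay above its untreated ones. Rps29 (0.40 ± 0.05) and Rps16 (0.36 ± 0.06) rose with adjusted p = 5.52e-06 and 4.28e-05, and their groups were apart too. These 9 members, Rpl22l1, Rpl12, Rpl7l1, Rplp0, Rps13, Rpsa, Rpl13a, Rps29 and Rps16, are the ones that rose both in the deposited values and with the common median.

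Among the members that did not pass, Rps2, which Prmt3 methylates, was 2316, 2424, 2584 and 2460 in WT livers after tunicamycin, against 2589, 2559, 2565 and 2391 in untreated WT, and the groups overlapped (-0.05 ± 0.05, adjusted p = 0.576). Rpl11, which with Rpl5 can bind Mdm2 and stabilise p53, was 1212, 1393, 1364 and 1163, against 1213, 1354, 1411 and 1126 untreated (0.01, adjusted p = 1). Its arrays overlapped fully. Rps27l, a paralog of Rps27 known as a p53 target, was 1116, 1078, 1191 and 1199 after tunicamycin, against 1219, 1243, 1266 and 1279 untreated. All its treated arrays lay below the untreated ones, yet it did not pass in the deposited values (-0.13 ± 0.06, adjusted p = 0.106), and with the common median it fell by 0.25 (adjusted p = 0.0253). The member that fell in the deposited values, Rpl3l, was 4 on each treated array, against 5 on each untreated one, which is a step of 1 unit at the floor and no measured level.

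**Figure D2:**
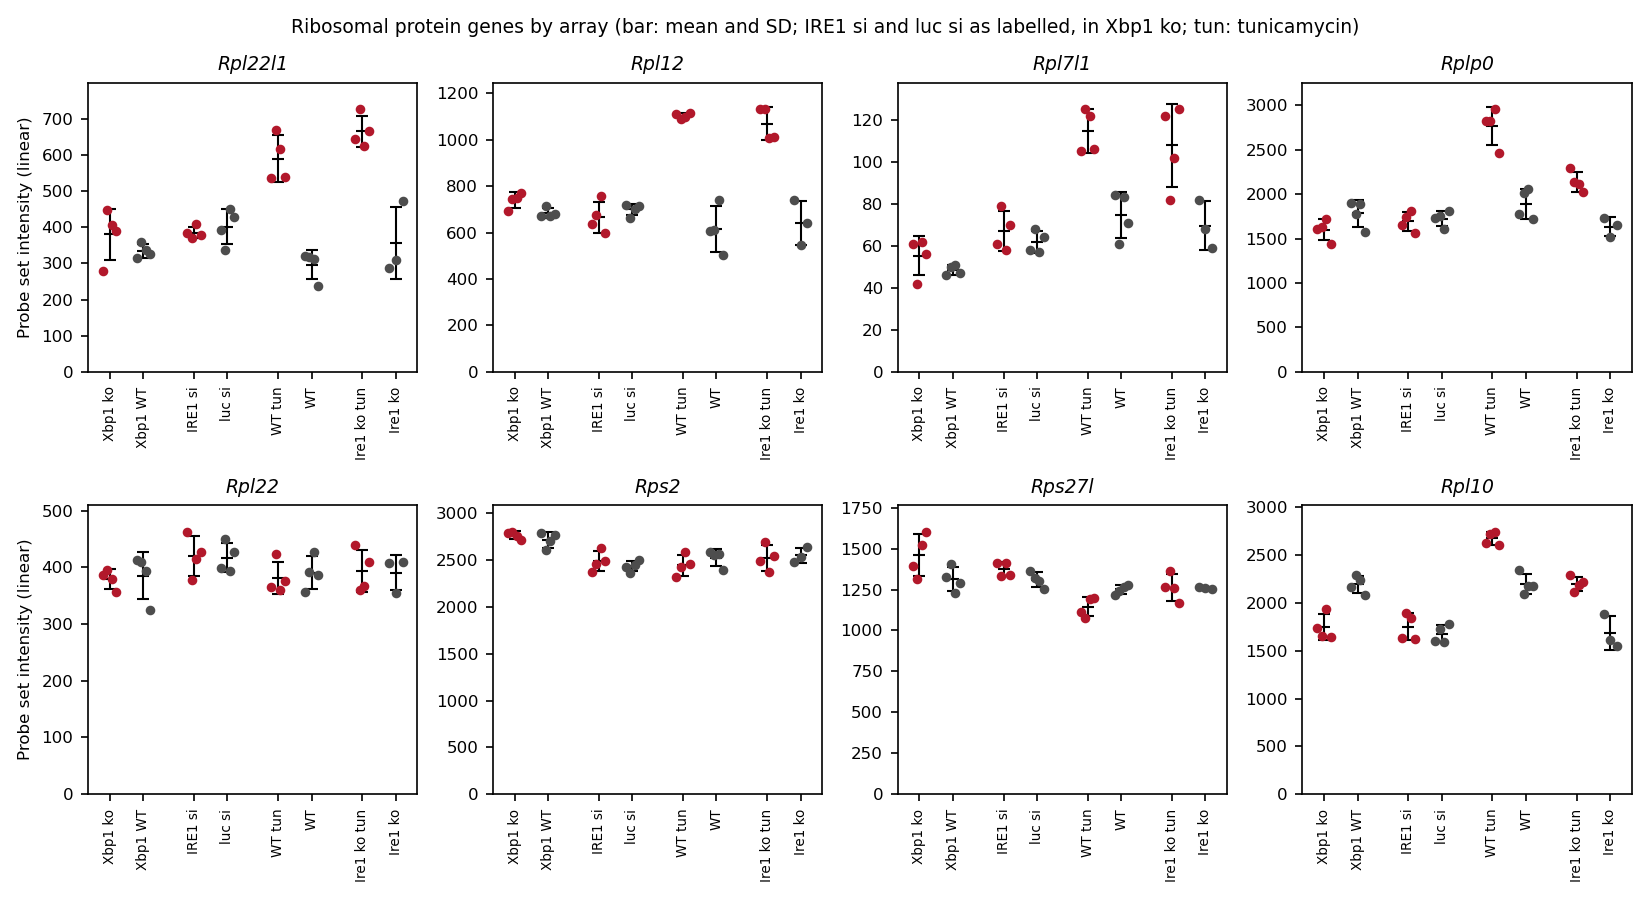
Intensity (linear) of 8 ribosomal protein genes on each array, by group, with mean and SD as bars. Rpl22l1, Rpl12, Rpl7l1 and Rplp0 stand higher after tunicamycin than untreated, apart from overlap or near contact in single Rpl7l1 arrays of Ire1 ko, while Rpl22 and Rps2 overlap, and Rpl10 stands lower in Xbp1 ko than in WT and lower in Ire1 ko than in WT.

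In Ire1 ko livers given tunicamycin, 47 ribosomal protein genes rose and 0 fell, against 17.4% and 10.3% of all genes (limma, adjusted p under 0.05). At an unadjusted p under 0.05 the members' counts were 56 and 0. Shares of all genes at an unadjusted p are not given, here or below. Counts at that threshold are therefore not to be set against the shares at an adjusted p. The members' median log2 difference was 0.30, against -0.00 over all genes, with 67 of 70 above 0, and 28 of 45 large and 19 of 25 small subunit genes rose. With the common median, which moved every difference by -0.18, 7 rose and 0 fell (12.4% and 22.4% of all genes), at a members' median of 0.12, against -0.18 over all genes. Scaled on probe sets at 300 or more, 49 rose and 0 fell (18.5% and 9.59% of all genes), at a members' median of 0.32. With quantile normalization 44 rose and 0 fell (13.5% and 14.7% of all genes), at a members' median of 0.26, against -0.03 over all genes. The other genes at intensities of 300 to 4000 had a median of -0.19, and 21.5% of them rose and 40.3% fell, in the deposited values. In 50 of 70 members all treated arrays lay above all 3 untreated ones, against 18.2% of all genes, and in 0 of 70 all lay below, against 10.6%. Single arrays weighed heavily here. Without Ire1 ko replicate 2 of the untreated group 30 members rose in the deposited values and 2 with the common median. Without replicate 3 of that group, whose array was shifted by 0.25, the common-median count was 17, and without replicate 1 of the treated group it was 3.

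The members with the largest differences in WT were also high here. Rpl22l1 was 643, 726, 625 and 665 in Ire1 ko livers after tunicamycin, against 288, 309 and 472 in untreated Ire1 ko (log2 0.93 ± 0.15, adjusted p = 0.00019). Rpl12 was 1132, 1132, 1007 and 1011, against 739, 549 and 642 untreated (0.74 ± 0.11, adjusted p = 0.000114). Both genes' groups were apart, although 1 untreated array of Rpl22l1 stood well above the other 2. Rpl7l1 was 122, 82, 102 and 125, against 82, 68 and 59 untreated (0.62 ± 0.17, adjusted p = 0.00852), and 1 treated array equalled the highest untreated one. Rps13 was 877, 750, 768 and 780, against 660, 553 and 537 untreated (0.45 ± 0.10, adjusted p = 0.00238). Rpl13a was 1831, 1890, 1506 and 1642, against 1322, 1186 and 1249 untreated (0.45 ± 0.10, adjusted p = 0.000901). Both sets of arrays were apart. These 5 genes rose both in the deposited values and with the common median, as did Rpl3 and also Rpl10, a protein added late in assembly. Rpl3 was 2636, 2493, 2242 and 2530 after tunicamycin, against 1789, 1649 and 1807 untreated (0.50 ± 0.07, adjusted p = 5.4e-05). Its lowest treated array stood clear of its highest untreated one.

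The stalk and small subunit genes rose here too in the deposited values. Rplp0 was 2292, 2135, 2115 and 2021 in Ire1 ko livers after tunicamycin, against 1736, 1518 and 1647 untreated (0.39 ± 0.08, adjusted p = 0.00137). Rplp1 rose by 0.23 ± 0.06 (adjusted p = 0.00329), and Rplp2, at the same difference of 0.23 ± 0.10, did not pass (adjusted p = 0.0825). Rpsa rose by 0.33 ± 0.08 (adjusted p = 0.00234). None of these 4 passed with the common median, the smallest adjusted p being 0.112 for Rplp0. Rps29 and Rps16, at 0.18 and 0.21 in the deposited values, stood at 0.01 and 0.03 with the common median. As in WT, Rps2 was 2486, 2698, 2370 and 2549, against 2483, 2531 and 2639 untreated (-0.02), and Rpl22 was 439, 360, 367 and 409, against 407, 355 and 410 untreated (0.01). Both overlapped fully, and the dimmer Rpl22 probe set was again higher, at 56, 56, 54 and 76, against 24, 22 and 30 untreated (1.25 ± 0.18, adjusted p = 7.55e-05 over all probe sets). Another bright probe set of Rps2 was 2839, 2698, 2817 and 2707 in treated Ire1 ko, against 2600, 2431 and 2507 untreated, and was apart. In WT that set overlapped, at 2436, 2748, 2779 and 2304, against 2634, 2526, 2545 and 2401 untreated. The remaining Rps2 set overlapped in both genotypes.

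The log2 differences in WT and in Ire1 ko come from separate arrays. Both comparisons were tested in 1 fit over 15 arrays, however, so their adjusted p rest on the same estimate of spread. The calls in the genotypes are therefore not fully separate. Of the members that rose, 26 did so in both genotypes, which is 92.9% of the 28 in WT and 55.3% of the 47 in Ire1 ko. The 2 that rose in WT but did not pass in Ire1 ko were Rplp2 and Rps25. With the common median 5 were shared, 55.6% of the 9 in WT and 71.4% of the 7 in Ire1 ko. Across the 66 measurable members the differences in the genotypes correlated with Pearson's r of 0.77 and Spearman's rho of 0.565, values that a shift of all genes leaves as they are, and that share the probe sets' own properties. The difference was larger in Ire1 ko for 54 of the 66 in the deposited values and for 40 with the common median. The shared counts, the correlations and these counts of larger differences are not given over all genes. They can therefore not be called particular to this family. A difference between genotypes in passing the threshold is not a test of it, and the interaction below is.

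**Figure D3:**
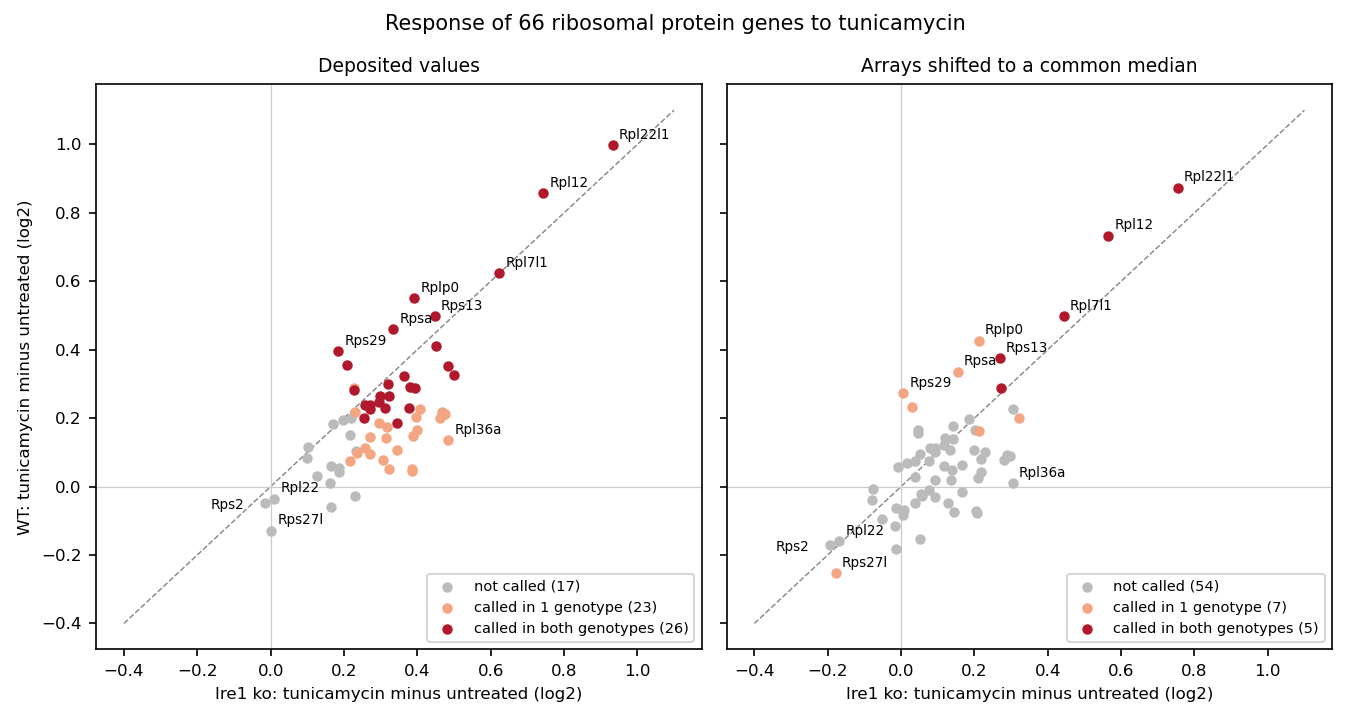
Log2 difference between tunicamycin and untreated livers for 66 ribosomal protein genes, in WT (vertical) against Ire1 ko (horizontal), in deposited values (left) and after a shift to a common median (right), with the dashed line marking equal differences and colour marking adjusted p under 0.05. Rpl22l1, Rpl12 and Rpl7l1 stand apart at the upper right in both panels, and the rest form a cloud that the common median moves towards 0, leaving 5 genes called in both genotypes in place of 26.

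Between the genotypes after tunicamycin, 7 members were higher and 3 lower in Ire1 ko than in WT (limma, adjusted p under 0.05), against 9.68% and 8.5% of all genes. This comparison uses the same treated arrays as the comparisons above, so it is no separate evidence for them. The members' median was 0.08, against 0.01 over all genes, and with the common median 5 were higher and 2 lower (10.6% and 8.32% of all genes). Scaled on probe sets at 300 or more, 3 were higher and 3 lower (7.98% and 9.6% of all genes). In 12 of 70 members all Ire1 ko arrays lay above all WT arrays, against 10.7% of all genes, and in 3 all lay below, against 8.79%. In the deposited values the members' share on the higher side, 10%, is near that of all genes, and on the lower side it is smaller, at 4.29%. Of the 1072 other genes at intensities of 300 to 4000, 32.9% were higher and 13.8% lower, at a median of 0.17. The members' median is thus above that of all genes and below that of other genes as bright. Without Ire1 ko replicate 2 of the treated group 5 members passed in either direction, and without replicate 1 of it 6 did. In the fits with the common median 2 and 3 passed without these arrays, and 3 without WT replicate 3 or 4 of the treated group. Those that passed in each of the 15 fits with 1 array left out were Rpl10, Rplp0, Rps15 and Rps29.

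Rps15, which is needed for export of the small subunit from the nucleus, was 1547, 1525, 1485 and 1515 in Ire1 ko livers after tunicamycin, against 1312, 1312, 1218 and 1186 in WT after tunicamycin (0.27 ± 0.06, adjusted p = 0.00424). The groups were apart. It was 1201, 1073 and 1220 in untreated Ire1 ko and 1171, 1255, 1275 and 1147 in untreated WT, which overlapped. A second probe set of Rps15 was 1045, 1034, 993 and 1034 in Ire1 ko after tunicamycin. In WT after tunicamycin that set was 811, 1021, 948 and 846, so its groups overlapped. Its response to tunicamycin did not pass for a difference between the genotypes. Rps15 was also the single member whose response to tunicamycin differed between the genotypes, with an interaction of 0.33 ± 0.09 (adjusted p = 0.0329), where 3.58% of all genes passed above 0 and 3.95% below. That call was lost in 8 of the 15 fits with 1 array left out, and with the common median 0 members passed, against 3.14% of all genes above 0 and 4.55% below (adjusted p = 0.276 for Rps15), with 1 member at an unadjusted p under 0.05 in each direction. Scaled on probe sets at 300 or more, again 0 passed (3.09% of all genes above 0 and 4.34% below), with 2 at an unadjusted p under 0.05 in each direction. Rpl36a was 935, 874, 765 and 677 in Ire1 ko after tunicamycin, against 684, 649, 598 and 573 in WT (0.37 ± 0.12, adjusted p = 0.0277). Rpl36 was 1124, 993, 1080 and 995, against 916, 871, 877 and 754 in WT (0.30 ± 0.09, adjusted p = 0.0174), and Rpl21 was 1182, 1259, 984 and 1039, against 872, 978, 852 and 764 in WT (0.36 ± 0.11, adjusted p = 0.0257). The arrays of Rpl36 and Rpl21 were apart, and 1 Ire1 ko array of Rpl36a lay among those of WT. Rps9 (0.27), Rpl29 (0.24) and Rpl35a (0.22) were also higher, and Rpl29 and Rpl35a did not pass with the common median. On the lower side, Rplp0 was at the values given above, with every Ire1 ko array below every WT array (-0.37 ± 0.07, adjusted p = 0.00189), and Rps29 lay at -0.19 ± 0.05 (adjusted p = 0.0128), which did not pass with the common median (adjusted p = 0.201).

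In untreated livers 0 members were higher and 1 was lower in Ire1 ko than in WT, against 0.0791% and 0.863% of all genes, and at an unadjusted p under 0.05 the counts were 0 and 3. The members' median was 0.00, against -0.03 over all genes. In 1 of 70 members all Ire1 ko arrays lay above all WT arrays, against 1.34% of all genes, and in 1 all lay below, against 3.64%. The gene that was lower is Rpl10, whose probe set can match more than 1 transcript. It was 1883, 1607 and 1553 in untreated Ire1 ko, against 2341, 2093, 2179 and 2174 in untreated WT, and the groups were apart (-0.39 ± 0.07, adjusted p = 0.00608). It was again the single member to pass with the common median, against 0.198% of all genes higher and 0.699% lower, though narrowly (-0.32, adjusted p = 0.047). In each of the 15 fits with 1 array left out it then no longer passed, with adjusted p up to 0.2.

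Rpl10 was lower in Xbp1 ko livers as well, and there again it was the single member that passed, 0 being higher and 1 lower of 69 tested, against 0.642% and 2.07% of all genes. At an unadjusted p under 0.05 the members' counts were 8 higher and 1 lower. Rpl10 was 1738, 1658, 1940 and 1644 in Xbp1 ko, against 2163, 2292, 2236 and 2088 in WT littermates, and the groups were apart (-0.33 ± 0.06, adjusted p = 0.0252). With 1 array left out the call was lost in 6 of 8 fits in the deposited values, with adjusted p up to 0.0919, and in 0 of 8 with the common median (-0.35, adjusted p = 0.00807), under which it was the single member called, against 0.885% of all genes higher and 2.6% lower. The second Rpl10 probe set gave 1253, 1199, 1352 and 1029 in Xbp1 ko, against 1644, 1560, 1602 and 1633 in WT (-0.42 ± 0.08, adjusted p = 0.0462 over all probe sets). On it the gene was also lower in untreated Ire1 ko, at 1301, 871 and 1007, against 1495, 1376, 1625 and 1509 in untreated WT (-0.52 ± 0.11, adjusted p = 0.0408). All these groups were apart. Tunicamycin raised Rpl10 in both genotypes, to 2632, 2724, 2747 and 2610 in WT (0.29 ± 0.06 over untreated, adjusted p = 0.0012) and to 2289, 2110, 2186 and 2214 in Ire1 ko (0.39 ± 0.06, adjusted p = 0.000246). The Ire1 ko arrays stayed below the WT arrays after treatment (-0.28 ± 0.06, adjusted p = 0.00307), and with the common median the rise in WT did not pass (0.16, adjusted p = 0.0646).

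The other 68 members in Xbp1 ko had a median log2 difference of 0.06, against 0.01 over all genes, with 57 above 0. All genes here include 8173 with a mean below 16, whose median was 0. With genes filtered at an intensity of 16, the median of 66 members, Rpl10 included, was 0.054, against 0.047 over all genes. Other genes at intensities of 300 to 4000 had a median of 0.02. With the common median the members, Rpl10 included, had a median of 0.04, against -0.01 over all genes. In 4 of the 69 members all Xbp1 ko arrays lay above all WT arrays, against 3.28% of all genes, and in 1, Rpl10, all lay below, against 3.73%. Rplp0, at -0.16 ± 0.08, had the next lowest difference and did not pass (adjusted p = 0.422). Rpl22l1 was 280, 447, 405 and 389 in Xbp1 ko, against 314, 360, 337 and 326 in WT, which overlapped (0.17 ± 0.14, adjusted p = 0.663). The 2 genes of the TOP list below that rose in Xbp1 ko are no ribosomal proteins: Gas5, a noncoding host of small nucleolar RNAs, which was dim in both groups (15.8 ± 0.957, against 10.2 ± 1.5 in WT, SD, n = 4 each, adjusted p = 0.0348), and Nap1l1, a histone chaperone (0.66 ± 0.13, adjusted p = 0.0417).

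Between the arrays labelled IRE1 siRNA and luciferase siRNA 0 of 69 members passed in either direction, against 0.649% of all genes above and 1.14% below. At an unadjusted p under 0.05 the counts were 3 and 0 in the deposited values, and 0 and 1 with the common median, under which again 0 passed after adjustment, against 0.364% of all genes above and 2.01% below. The members' median was 0.03 in the deposited values and -0.04 with the common median, so its sign follows the scaling. The largest differences were 0.21 for Rpl14, which is at the floor, 0.14 for Rpl24 and -0.11 for Rpl31. Rpl22l1 lay at -0.05 ± 0.09 (adjusted p = 0.792) and Rpl10 at 0.06 ± 0.07, both with overlapping arrays. In 1 of 69 members all arrays labelled IRE1 siRNA lay above all those labelled luciferase siRNA, against 4.23% of all genes, and in 0 all lay below, against 2.51%. Off the probe sets used, the dimmer set of Rpl22 was 33, 31, 26 and 33 on arrays labelled IRE1 siRNA, against 50, 43, 46 and 46 on those labelled luciferase siRNA (-0.59 ± 0.09, adjusted p = 0.0353 over all probe sets).

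Genes that act with the ribosomal proteins were followed in lists. For comparison with each list, 18.5% of all genes rose and 17.6% fell in WT, and 17.4% rose and 10.3% fell in Ire1 ko, in the deposited values. With the common median 15.6% of all genes rose and 26.1% fell in WT, and 12.4% rose and 22.4% fell in Ire1 ko. After tunicamycin the factors that assemble ribosomes in the nucleolus had a larger median difference than the proteins they assemble. Of 34 tested, 30 rose and 0 fell in WT, at a median log2 difference of 1.16, and 31 rose and 0 fell in Ire1 ko, at 1.41. The counts that rose were 29 and 30 with the common median. Several are dim without treatment, 7 in WT and 8 in Ire1 ko with an untreated mean below 16, and with intensities below 16 raised to 16 the medians were 1.08 and 1.37. Nop58, a core protein of the box C/D small nucleolar particles that guide methylation of ribosomal RNA, averaged 118.8 ± 15.6 in WT livers after tunicamycin and 8 ± 2.71 in untreated WT (SD, n = 4 each). The untreated level is near the floor, so against 16 it was at least 7.37-fold higher (limma, adjusted p = 5.72e-11). Gar1, of the box H/ACA particles that guide pseudouridylation, averaged 86 ± 10.5 after tunicamycin and 9.5 ± 1.29 untreated, at least 5.35-fold higher on the same basis (adjusted p = 2.96e-11). Ltv1, which assembles the small subunit, averaged 313.8 ± 51.3 after tunicamycin and 72 ± 11.9 untreated (log2 difference 2.13, adjusted p = 4.45e-09). In Ire1 ko Nop58 was at least 4.98-fold and Gar1 at least 4.57-fold higher, and Ltv1 rose by 2.27 on the log2 scale.

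Genes of the polymerase that makes ribosomal RNA were followed next. Of 12 tested genes of RNA polymerase I and its factors, 10 rose and 0 fell in WT (median 0.76) and likewise in Ire1 ko (median 1.05), and with the common median 9 and 8 rose. In each genotype 6 of the 12 had an untreated mean below 16, and with intensities below 16 raised to 16 the medians were 0.22 and 0.45. Twistnb, a subunit, averaged 374.2 ± 60.8 in WT livers after tunicamycin and 40.5 ± 13.7 in untreated WT (SD, n = 4 each), a difference of 3.25 (adjusted p = 3.76e-09). It rose by 2.98 in Ire1 ko. Of 6 elongation factors 4 rose and 0 fell in each genotype, at medians of 0.20 in WT and 0.25 in Ire1 ko, close to those of the ribosomal proteins. They were Eef1a1, Eef1b2, Eef1d and Eef2, and 2 of the 6 in WT and 1 in Ire1 ko rose with the common median. Of 14 other genes with TOP messages 8 rose and 1 fell in WT (median 0.34), and 10 rose and 1 fell in Ire1 ko (median 0.55), with 6 and 8 rising under the common median. Npm1, the nucleolar chaperone nucleophosmin, averaged 530.2 ± 66.0 after tunicamycin and 259.8 ± 41.3 untreated in WT (1.04, adjusted p = 2.81e-06), and Eif3f, of the initiation factor eIF3, fell to 3659 ± 86.2 after tunicamycin, against 4376 ± 63.9 untreated (-0.26, adjusted p = 0.000103).

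Genes that restrain mTORC1 or the cap-binding protein eIF4E moved both ways, with 4 of 10 higher and 3 lower in each genotype, or 4 and 3 in WT and 3 and 4 in Ire1 ko with the common median. Of the 10, 6 had an untreated mean below 16. The list's higher genes include targets of the stress response. Trib3 averaged 520.8 ± 112 in WT livers after tunicamycin and 6.25 ± 1.26 in untreated WT (SD, n = 4 each), at least 32-fold higher against a floor of 16 (adjusted p = 2.3e-12). Eif4ebp1, which sequesters eIF4E, rose by 1.11 on the log2 scale, and Ddit4, at 4 ± 0.816 untreated, was at least 1.84-fold higher. Eif4ebp2 fell by 1.12 and Sesn3 by 1.13 on that scale, and Sesn1 was at least 1.55-fold lower, at 12.2 ± 1.26 after tunicamycin. Mitochondrial ribosomal proteins, which form another ribosome, did not move as one: 16 of 73 rose and 23 fell in WT (median -0.11), and 19 rose and 11 fell in Ire1 ko (median 0.02). With the common median 13 rose and 30 fell in WT (median -0.23) and 13 rose and 24 fell in Ire1 ko (median -0.16), so the balance in Ire1 ko turned round. The extremes in WT were Mrps12, which rose by 1.55, and Mrpl49, at least 6.49-fold lower at 11 ± 4.32 after tunicamycin, against 106 ± 10.7 untreated.

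**Figure D4:**
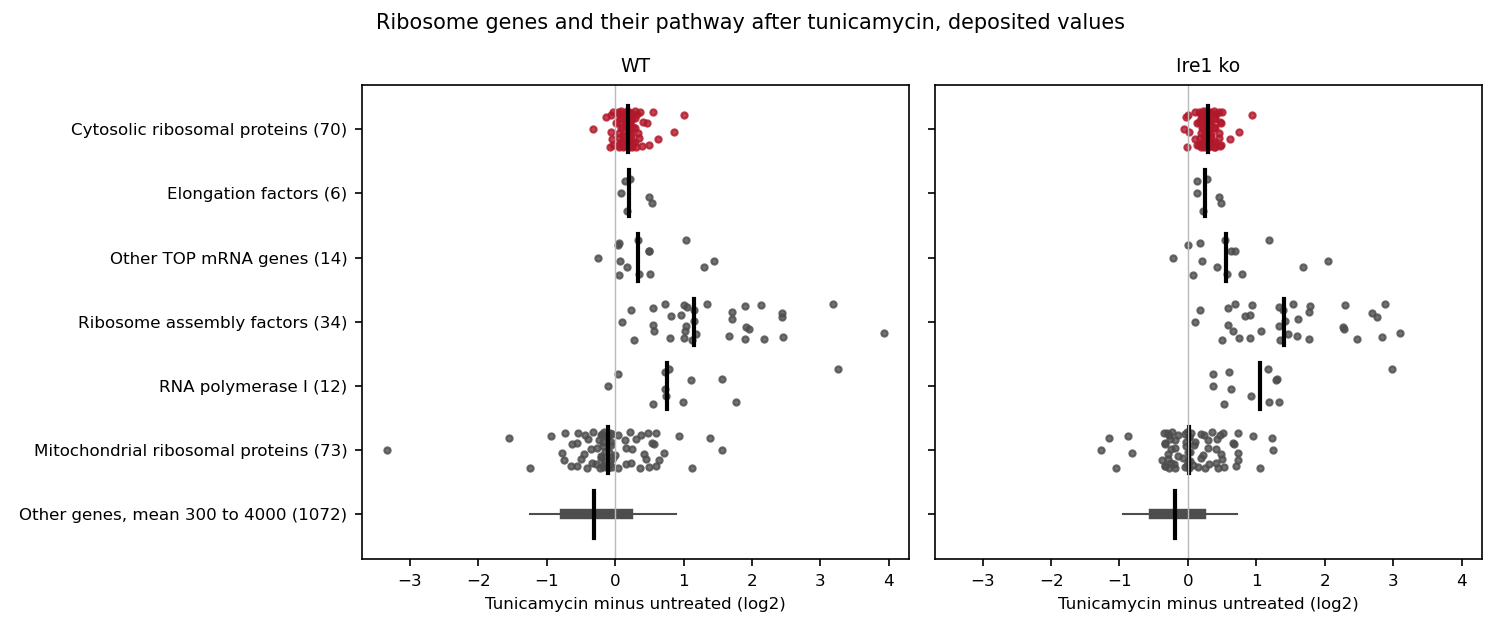
Log2 difference between tunicamycin and untreated livers in WT (left) and Ire1 ko (right), in deposited values, for the ribosomal proteins, 5 lists of related genes and the other genes of mean intensity 300 to 4000 (points are genes, thick lines medians, the box spans the middle of the distribution and its line the 10th to 90th percentile). Ribosomal proteins lie in a narrow band with medians of 0.19 and 0.30, assembly factors reach much further with medians of 1.16 and 1.41, and the other genes centre below 0.

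Within groups the ribosomal proteins varied together from array to array. Over 31 arrays, after each group's mean was taken off, the median correlation between pairs of the 66 measurable members was 0.424 in the deposited values and 0.648 with the common median. Members and other genes at intensities of 300 to 4000 correlated at a median of -0.0567 and 0.209, and pairs of those other genes at 0.0399 and 0.184. These pairs share arrays and RNA samples, so the values describe these 31 arrays. Members with several measurable probe sets were also compared: 41 further sets of 28 genes had the same direction as the set used in 33 of 41 for tunicamycin in WT and in 37 of 41 in Ire1 ko. Of those sets 12 and 18 rose, with adjustment over the 36948 probe sets tested. The share of all probe sets that rose is not given. The shares of all genes that rose, 18.5% and 17.4%, come from another fit with 1 probe set per gene. They are therefore not a like background for these counts. Among further sets of genes that rose on the set used, only 6 of 13 rose in WT and 14 of 28 in Ire1 ko. For genes higher in Ire1 ko than in WT after tunicamycin it was 1 of 3. In none of these comparisons did 2 sets of a gene pass in opposite directions.

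Markers of liver cell types moved with tunicamycin too, and their counts are in deposited values unless stated, in which 17.6% of all genes fell in WT and 10.3% in Ire1 ko. Of 7 hepatocyte markers 0 rose and 4 fell in WT, Apob by 1.04, Ttr and Serpina1a by 0.30 each and Apoa1 by 0.26, and their summed intensity was 30334 to 30816 after tunicamycin, against 32377 to 35929 untreated. In Ire1 ko 0 rose and 1 fell, with sums of 31738 to 33673, against 32033 to 35236 untreated. Of 6 Kupffer cell markers 0 rose and 2 fell in WT (sums 371 to 520, against 576 to 1170 untreated) and 0 passed in Ire1 ko (585 to 828, against 548 to 1832 untreated). Of 6 endothelial markers 1 rose and 3 fell in WT (sums 319 to 422, against 436 to 560 untreated), and 1 rose and 1 fell in Ire1 ko (371 to 569, against 353 to 515 untreated). Of 6 stellate cell markers 1 fell in each genotype, and of 3 erythroid markers 1 fell in each. Markers of lymphocytes, neutrophils and cholangiocytes summed to 18 to 77 over lists of 4 to 7 genes, near the floor, and 0 of these passed in the deposited values. The counts that fell depended on the scaling: with the common median 5 hepatocyte, 4 Kupffer cell, 3 endothelial, 2 stellate, 2 erythroid, 3 lymphocyte, 1 neutrophil and 1 cholangiocyte marker fell in WT, where 26.1% of all genes fell. In Ire1 ko 3 hepatocyte, 0 Kupffer cell, 1 endothelial, 1 stellate, 1 erythroid and 1 lymphocyte marker fell with it, where 22.4% of all genes fell. The part of these cell types in the ribosomal protein differences was not tested.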

How the data were processed

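Total RNA of each liver was hybridised to Affymetrix mouse arrays. The deposited intensity values were made with RMA in the affy package, per the submitters' processing notes, which give no version; they are whole numbers on a linear scale, for 45037 probe sets and 31 arrays. Each column was matched to its sample by title, and 0 columns were left unmatched. Of the probe sets, 28898 carry 1 gene symbol, 551 several and 15588 none here; those with 1 symbol were used. Rpl5 and Rps3 are only on probe sets with several symbols and were not analysed here.

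Intensities were taken to log2 and tested with limma 3.58.1 in R 4.3.3 (lmFit, eBayes with an intensity trend), in 1 fit per experiment (8, 8 and 15 arrays), over genes above the 30th percentile of an array in at least 3 arrays. Calls use an adjusted p under 0.05 (Benjamini-Hochberg over all genes tested). The labels call arrays biological replicates. The p-values set differences between group means against the spread between these samples, which limma estimates over all groups of a fit and moderates across genes. The family and the lists of related genes and markers were chosen with earlier results of these data known. Named genes are the stalk, Rpsa and Rpl11, paralog pairs, members passing in any comparison (10 at most by p), members with extreme means or differences, and up to 4 passing genes of a list. The fit was tested on simulated data. Alternatives were the common median, quantile normalization, other filters, the mean of all probe sets, a fit over all arrays, no trend, a replicate block, single arrays left out and, chosen after seeing the data, a common median over probe sets at 300 or more, combinations with the common median and, for related genes, intensities below 16 raised to 16.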

Additional observations from a re-analysis of the deposited data

Results flagged for a closer look

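In 105 groups of 4 arrays of named genes, 4 had an array further from the others than Dixon's 95% limit of 0.829, a rule that chance meets in about 1 of 20 groups. Rpl36 in Xbp1 ko was 1077 on 1 array, against 924, 934 and 929 on the others (gap over range 0.93). On the arrays labelled luciferase siRNA Rps15 was 1247 on 1 array and 1375, 1366 and 1371 on the others (0.933). In untreated WT littermates of Ire1 ko, Rpl22l1 was 237 on 1 array and 319, 317 and 312 on the others (0.925), and with any 1 array left out the rise of Rpl22l1 after tunicamycin in WT stayed between 0.89 and 1.04. In the same group Rps2 was 2391 on 1 array and 2589, 2559 and 2565 on the others (0.854). The response of Rps15 to tunicamycin differed between Ire1 ko and WT by 0.33 on the log2 scale (limma interaction, adjusted p = 0.0329). On the second probe set of Rps15 no such difference passed.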

How the results depend on the processing

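With the common median the count of members passing was 11 for tunicamycin in WT (median 0.0619) and 7 in Ire1 ko (median 0.117), 0 for the interaction, and the siRNA median was -0.0358; the level per array became -0.0372 in Xbp1 WT, 0.00123 on arrays labelled luciferase siRNA, 0.00172 in WT after tunicamycin and 0.12 in Ire1 ko after tunicamycin. A common median over probe sets at 300 or more, chosen after seeing the data, gave 40 for tunicamycin in WT and 49 in Ire1 ko, above the 29 and 47 of the deposited values, 6 for Ire1 ko against WT after tunicamycin and 0 for the interaction. Quantile normalization gave 35 for tunicamycin in WT and 44 in Ire1 ko. For Xbp1 ko 3 passed with quantile normalization, 0 without the trend. The interaction had 0 with quantile normalization, the mean of all probe sets or no trend, and 2 in 1 fit of all 31 arrays. The causes were not tested.

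With single arrays left out the count passing ranged from 20 to 34 for tunicamycin in WT, 30 to 50 in Ire1 ko, 5 to 13 for Ire1 ko after tunicamycin, 0 to 1 for Xbp1 ko and 0 to 2 for the interaction. With the common median these were 8 to 12, 2 to 17, 2 to 9, 1 in each fit and 0 in each fit, and untreated Ire1 ko gave 0 in each. The medians with the common median then ranged from 0.0156 to 0.197 for tunicamycin in Ire1 ko, -0.0389 to 0.146 for untreated Ire1 ko and -0.0399 to 0.147 for the interaction. In these fits the tunicamycin difference in Ire1 ko turned negative for 4 named genes: Rpl21 (-0.0066), Rplp1 (-0.0187) and Rps16 (-0.0284, -0.00223 and -0.00927), and Rps29 (-0.0532, -0.0192, -0.0162 and -0.0238).

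The sample titles give replicate numbers and name no pairing. Deviations of same-numbered arrays correlated between -0.183 and 0.193, and every array correlated best with its own number in no comparison. For Xbp1 ko against WT, however, the correlations of the 4 pairs lay between 0.0159 and 0.171, and 3 were best with their own number. Whether those arrays were paired is not known. With the replicate block 0 members passed for Xbp1 ko, 0 for siRNA, 1 for untreated Ire1 ko, 28 for tunicamycin in WT, 50 in Ire1 ko, 10 for Ire1 ko after tunicamycin and 1 for the interaction. Block and common median together gave 0 for untreated Ire1 ko, 10 for tunicamycin in WT (median 0.0619), 5 in Ire1 ko (0.14), 6 for Ire1 ko after tunicamycin, 0 for the interaction and a siRNA median of -0.0358.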
